A study of Mus musculus with 36 samples.

Results

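The comparison set kidneys of ob/ob mice given cadmium chloride (CdCl2) at 2 mg/kg against kidneys of untreated ob/ob mice. It was formed by sample title and took in 6 libraries from each group, 12 of the 36 in the series, and all 18180 genes that passed the filter on low counts. The ob/ob mouse, which the labels call ob, lacks working leptin, the satiety hormone made by fat cells, and becomes obese. The groups used besides were ob kidneys at 0.5 mg/kg and kidneys of normal C57BL/6 mice, called b6j, at 2 mg/kg and untreated, with 6 libraries each. Every ob library carried the same genotype, so the dose was the only labelled difference between the groups compared first. The labels give the strain as C57BL/6 and the tissue as kidney, and do not give route, duration, age or sex. The titles number replicates 1 to 6 and do not say that each was a separate animal, so p-values measure the spread between these samples, which may in part be technical.

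Cadmium taken up by the body collects in the kidney, mainly in the cells of the proximal tubule, which reabsorb filtered protein together with the metal bound to it. Metallothioneins are small cysteine-rich proteins that bind cadmium and zinc, and their genes are switched on by the zinc-sensing factor MTF1. Cadmium also depletes glutathione, and the factor NRF2, released from its inhibitor KEAP1 under oxidative or electrophilic stress, raises genes that make and use it. Damaged tubule cells lose transporters and enzymes and turn on injury genes such as Havcr1, which encodes the injury molecule KIM-1.

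Many genes differed between 2 mg/kg and control kidneys. edgeR's quasi-likelihood test with Benjamini-Hochberg adjustment called 6976 of 18180 genes (38.4%) at an adjusted p below 0.05, of which 3708 were higher (20.4%) and 3268 lower (18.0%) at 2 mg/kg. Of all genes tested, 1886 (10.4%) were called with a change of more than 2-fold. In 1525 genes (8.39%) each of the 6 treated libraries lay above each of the 6 controls, and in 1587 (8.73%) each lay below. The median log2 change over all genes was 0.01, so changes are given against a centre near 0. The same fit with the spread estimated from these 2 groups alone called 3880 genes, and 6516 when replicate 5 was also left out.

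One library at 2 mg/kg, replicate 5, stood apart from the other 5. On the first principal component of the 12 libraries, which held 46.4% of the variance, replicate 5 lay at 156.13, the other treated libraries at 10.28 to 38.4 and the controls at -49.06 to -41.74. Without replicate 5, the test called 6989 of 18380 genes (38.0%), 3514 higher (19.1%) and 3475 lower (18.9%). The 5855 genes called both ways were 83.9% of the calls with replicate 5 and 83.8% of those without it, and 1 of them, Rasd1, changed direction. Values below are given for all 6 treated libraries unless another set is named, and many are also given without replicate 5.

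The 12 libraries held 26783936 to 33651340 counted reads, and 3 counts were worth 0.0891 to 0.112 CPM, the read counts scaled to a common library size. Markers of the labelled tissue were plentiful. The 28 genes of proximal tubule uptake and transport summed to 14151 to 18350 CPM in treated replicates 1 to 4 and 6, to 4103 CPM in replicate 5 and to 19314 to 22496 CPM in controls. In whole tissue, fewer cells of a type and less RNA per cell cannot be told apart.

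Metallothionein genes rose: all 3 that were tested were called higher, and 2 of 3 without replicate 5, beside 20.4% and 19.1% of all genes. Mt1 (chr8:94179082-94180327, GRCm38) had 3942, 4310 and 5414 CPM (lowest, median and highest library) in 2 mg/kg kidneys, against 91.1, 106 and 150 CPM in control kidneys. All 6 treated libraries lay far above all controls, and replicate 5 was the highest of them (log2 change 5.31 ± 0.16 (SE), edgeR adjusted p = 6.77e-24). Mt2 (chr8:94172664-94173568) had 26.0, 28.9 and 38.6 CPM in 2 mg/kg kidneys and 0.232, 0.492 and 0.977 CPM in control kidneys (log2 change 5.80 ± 0.27, edgeR adjusted p = 3.56e-18), and these groups did not overlap either. The counted level of Mt2 is not its full level: an annotated antisense gene, Gm45774 at chr8:94170748-94173412, covers 749 of its 905 bases, and counting without strand does not assign reads that overlap both. Mt3, a metallothionein known best from brain, stayed near 1 CPM, with 0.358, 0.733 and 2.03 CPM in 2 mg/kg kidneys and 0.237, 0.477 and 0.696 CPM in control kidneys, and 5 of 6 treated libraries lay above all controls. Its call (log2 change 1.11 ± 0.45, edgeR adjusted p = 0.0497) was lost without replicate 5 (0.79 ± 0.45, edgeR adjusted p = 0.173).

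Mt1 and Mt2 lie side by side and rose together, so the 250 bases before each gene's RefSeq start (GRCm38.p6, + strand) are shown, with matches to the core of the metal response element that MTF1 binds in capitals. The letters searched on both strands were TGCGCNC and TGCACNC. The Mt1 window is chr8:94178839-94179088 and the Mt2 window chr8:94172368-94172617.
Mt1: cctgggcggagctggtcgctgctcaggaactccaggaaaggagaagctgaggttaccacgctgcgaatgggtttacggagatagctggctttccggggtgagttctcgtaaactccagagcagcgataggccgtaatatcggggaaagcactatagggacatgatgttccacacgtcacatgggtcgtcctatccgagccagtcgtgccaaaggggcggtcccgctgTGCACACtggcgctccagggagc
Mt2: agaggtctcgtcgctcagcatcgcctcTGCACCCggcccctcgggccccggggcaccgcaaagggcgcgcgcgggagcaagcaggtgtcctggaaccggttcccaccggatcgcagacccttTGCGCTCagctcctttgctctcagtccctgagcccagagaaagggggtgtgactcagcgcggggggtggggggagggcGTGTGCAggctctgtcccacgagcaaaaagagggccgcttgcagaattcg
The Mt1 window holds 1 match and the Mt2 window 3, of which the last is on the opposite strand. Each window is set by an annotated RefSeq start, and whether transcripts in these kidneys began there was not tested. Matches outside the windows shown are not counted, including any just after the window. The counts therefore do not give the number of metal response elements of either gene, or which gene has more. Of 32851 windows of this length in the RefSeq table, 21.41% hold at least 1 match and 1.26% at least 3. A match describes letters only, and no binding was measured here.

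The list of zinc and cadmium transport held 15 tested genes, among them Mtf1, which encodes the factor MTF1 and not a transporter. Of the 15, 6 were called higher and 2 lower (5 and 2 without replicate 5), beside 20.4% and 18.0% of all genes. The median log2 change of the list was 0.24. Slc39a8 encodes ZIP8, an importer of zinc, manganese and cadmium. It had 10.6, 24.4 and 31.0 CPM in 2 mg/kg kidneys, against 53.5, 65.4 and 76.7 CPM in control kidneys (log2 change -1.48 ± 0.18, edgeR adjusted p = 5.48e-08), and no treated library reached the lowest control. Slc30a2, an exporter of zinc into vesicles, had 102 to 134 CPM in 2 mg/kg kidneys and 44.5 to 63.1 CPM in control kidneys (log2 change 1.17 ± 0.14). Slc39a5, an epithelial zinc importer, had 43.4 to 103 CPM in 2 mg/kg kidneys and 33.8 to 43.1 CPM in control kidneys (log2 change 1.10 ± 0.13).

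Genes of heme breakdown rose too. Hmox1, the heme oxygenase that opens the heme ring (chr8:75093621-75100589), had 1007, 1360 and 2079 CPM in 2 mg/kg kidneys, against 23.0, 25.3 and 33.0 CPM in control kidneys. The groups were far apart, and replicate 5 was the lowest treated library (log2 change 5.74 ± 0.20, edgeR adjusted p = 4.42e-22). Of 16 genes of heme breakdown and iron, 8 were called higher and 2 lower, beside 20.4% and 18.0% of all genes. Blvrb, a biliverdin reductase, had 59.4 to 274 CPM in 2 mg/kg kidneys and 20.5 to 29.1 CPM in control kidneys (log2 change 2.34 ± 0.24). Slc48a1, which moves heme out of lysosomes, had 237 to 523 CPM in 2 mg/kg kidneys and 156 to 176 CPM in control kidneys (log2 change 1.02 ± 0.12). Slc40a1, the iron exporter ferroportin, had 64.1 to 190 CPM in 2 mg/kg kidneys and 48.9 to 67.3 CPM in control kidneys (log2 change 1.42 ± 0.15), and replicate 5, at 64.1 CPM, was the only treated library within the control range.

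NRF2 target genes mostly rose. Of 26 regulators and targets tested, 22 were called higher and none lower, with and without replicate 5. Over all genes, 20.4% were called higher and 18.0% lower. The median log2 change of the list was 1.03, against 0.01 over all genes. Counting each of the 41 lists once per direction, edgeR called 0 members in 19 cases, and in each of these at most 1 member had an unadjusted p below 0.05 that way and at most 1 was called by DESeq2. Cbr3, a carbonyl reductase, had 85.1, 104 and 204 CPM in 2 mg/kg kidneys, against 4.43, 6.51 and 8.70 CPM in control kidneys (log2 change 4.25 ± 0.21, edgeR adjusted p = 1.96e-17). Ephx1, the microsomal epoxide hydrolase, had 343, 474 and 820 CPM in 2 mg/kg kidneys and 68.4, 79.9 and 98.7 CPM in control kidneys (log2 change 2.66 ± 0.18, edgeR adjusted p = 5.86e-14). Both genes were separated completely between groups. Txnrd1, which keeps thioredoxin reduced, had 456 to 1010 CPM in 2 mg/kg kidneys and 158 to 187 CPM in control kidneys (log2 change 1.92 ± 0.14), and Pgd, an enzyme of the pentose phosphate pathway that makes NADPH, had 316 to 576 CPM in 2 mg/kg kidneys and 125 to 148 CPM in control kidneys (log2 change 1.56 ± 0.11). Treated replicates 1 and 3 carried the most summed RNA of this list, at 11147 and 12382 CPM, the other treated libraries 7618 to 10136 CPM and controls 4343 to 4721 CPM. The factor itself and its inhibitor were not called: Nfe2l2 had a log2 change of 0.14 ± 0.11 (edgeR adjusted p = 0.336) and Keap1 one of -0.06 ± 0.09 (edgeR adjusted p = 0.652).

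Glutathione genes followed. Slc7a11, the cystine importer that feeds glutathione synthesis (chr3:49892526-50443614), had 5.96, 16.4 and 64.5 CPM in 2 mg/kg kidneys, against 0, 0.0909 and 0.129 CPM in control kidneys. Control libraries held 14 reads of it in all, so the size of its fold is imprecise, and every treated library was above every control (log2 change 8.29 ± 0.77, edgeR adjusted p = 1.91e-10, and log2 change 7.68 ± 0.68 without replicate 5). Of 21 glutathione transferases, 12 were called higher and 3 lower (12 and 4 without replicate 5), beside 20.4% and 18.0% of all genes. Their summed level was 6749 to 10778 CPM in the other 5 treated libraries, 4914 CPM in replicate 5 and 2355 to 2761 CPM in controls. Gstm1 had 1262, 3420 and 5766 CPM in 2 mg/kg kidneys and 444, 485 and 628 CPM in control kidneys (log2 change 2.87 ± 0.20, edgeR adjusted p = 1.24e-13). Gsta4, which clears lipid peroxidation products, had 203, 521 and 768 CPM in 2 mg/kg kidneys and 46.5, 52.7 and 71.7 CPM in control kidneys (log2 change 3.24 ± 0.21, edgeR adjusted p = 4.04e-14). Replicate 5 was the lowest treated library for both and still above every control. Gsta1 had 103 to 274 CPM in 2 mg/kg kidneys and 0.773 to 1.69 CPM in control kidneys (log2 change 7.29 ± 0.56), and Gstm3 had 22.5 to 93.4 CPM in 2 mg/kg kidneys and 0.161 to 0.551 CPM in control kidneys (log2 change 7.84 ± 0.39). Members of the Gsta, Gstm, Ugt, Ceacam and Ly6 families share sequence, so reads may be split between near copies.

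Other large rises fell outside these pathways. Ugt2b35, a UDP-glucuronosyltransferase, had 39.4, 124 and 267 CPM in 2 mg/kg kidneys, against 0, 0.176 and 0.443 CPM in control kidneys (log2 change 9.65 ± 0.45, edgeR adjusted p = 4.38e-18). Slc5a4b, a member of the sodium-glucose cotransporter family, had 5.52, 13.8 and 53 CPM in 2 mg/kg kidneys and 0, 0.0316 and 0.295 CPM in control kidneys (log2 change 8.0 ± 0.73, edgeR adjusted p = 1.55e-10), and replicates 1, 3 and 5 were higher than replicates 2, 4 and 6. Its controls held 17 reads in all, and without control replicate 5 the log2 change was 8.96. Popdc3, a membrane protein of the popeye family, had 9.95, 12.2 and 37.0 CPM in 2 mg/kg kidneys and 3 reads in all control kidneys together. Psg29, of the pregnancy-specific glycoprotein family, had 5.25 to 76.1 CPM in 2 mg/kg kidneys and 4 reads in all control kidneys together. Serpinb9b, a serpin that inhibits proteases, had 9.25 to 37.4 CPM in 2 mg/kg kidneys and 6 reads in all control kidneys together. The edgeR adjusted p was 2.12e-12 for Popdc3, 1.56e-11 for Psg29 and 8.68e-15 for Serpinb9b, and no fold is given because the controls held so few reads. Ly6f, a cell surface protein, had 11.6 to 116 CPM in 2 mg/kg kidneys and 0.178 to 0.754 CPM in control kidneys (log2 change 6.77 ± 0.48). Ceacam3 of the carcinoembryonic antigen family (log2 change 6.15 ± 0.39) and Nyx, a leucine-rich repeat protein known from retina (log2 change 6.20 ± 0.40), also rose in all 6 treated libraries, and the value of Ceacam3 was 6.77 without control replicate 6.

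**Figure D1:**
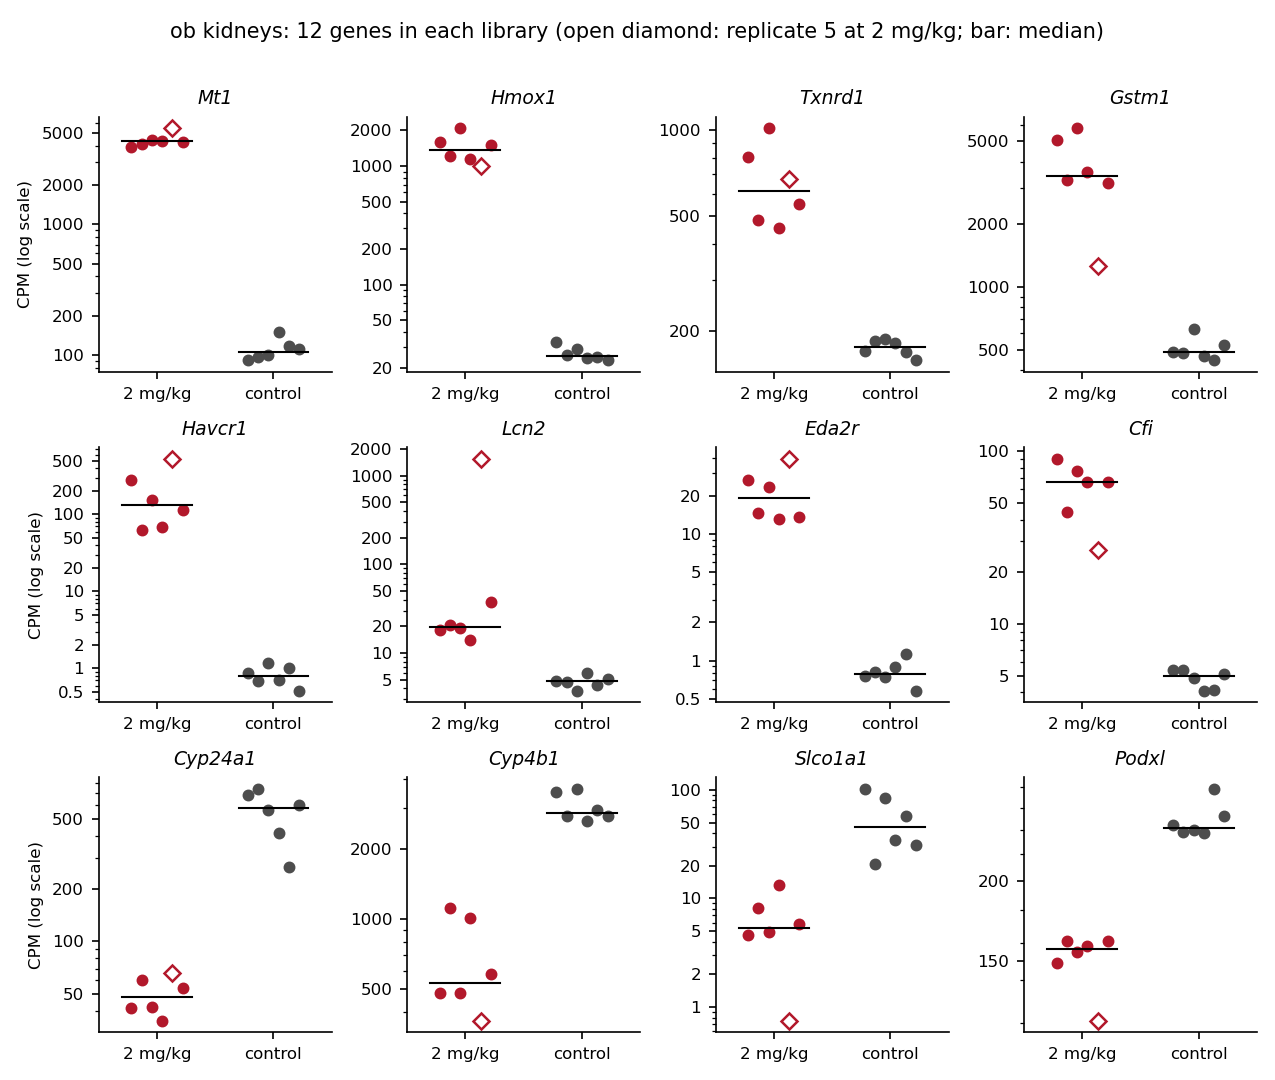
CPM on a log axis for 12 genes in each ob library, 6 at 2 mg/kg (red, left) and 6 controls (grey, right), with replicate 5 as an open diamond and the median as a bar. The groups do not overlap in any of the 12 panels, and replicate 5 sits far from the other treated libraries for Lcn2 (1558 CPM against 13.9 to 37.2 CPM) and is the highest treated library for Mt1 (5414 CPM) and the lowest for Hmox1 (1007 CPM).

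Tubular injury markers were raised. Of 18 markers, 17 were called higher and none lower, with and without replicate 5. Over all genes, 20.4% were called higher and 18.0% lower (19.1% and 18.9% without replicate 5). The median log2 change of the markers was 2.12 with replicate 5 and 1.46 without it. Havcr1 (chr11:46735080-46779578) had 63.8, 133 and 530 CPM in 2 mg/kg kidneys, against 0.516, 0.798 and 1.18 CPM in control kidneys (log2 change 7.91 ± 0.98, edgeR adjusted p = 7.38e-08). The lowest treated library was far above the highest control, and replicate 5 was the highest. Lcn2, the iron-siderophore binding protein NGAL used as a urinary injury marker (chr2:32384633-32388252), had 13.9, 19.9 and 1558 CPM in 2 mg/kg kidneys and 3.77, 4.78 and 5.98 CPM in control kidneys. The log2 change was 5.86 ± 0.86 with replicate 5 (edgeR adjusted p = 1.73e-06) and 2.19 ± 0.21 without it (edgeR adjusted p = 1.06e-10), and all 6 treated libraries were above the controls either way. Gdf15, a stress-induced cytokine, had 53.1, 70.3 and 147 CPM in 2 mg/kg kidneys and 5.29, 6.14 and 8.24 CPM in control kidneys (log2 change 3.63 ± 0.27, edgeR adjusted p = 7.44e-13). Tnfrsf12a, the receptor of the cytokine TWEAK, had 45.9 to 326 CPM in 2 mg/kg kidneys and 9.12 to 16.1 CPM in control kidneys (log2 change 3.30 ± 0.34, and 2.65 ± 0.24 without replicate 5). Timp1, an inhibitor of matrix proteases (log2 change 3.18 ± 0.35), and Cd44, a hyaluronan receptor (log2 change 2.48 ± 0.30), were also higher in 6 of 6 treated libraries. Of 14 keratins and genes of epithelial spreading, 9 were called higher and 1 lower with replicate 5, and 6 and 2 without it. Cdh6, a cadherin of the developing tubule, had 6.51 to 23.6 CPM in 2 mg/kg kidneys and 4.30 to 6.81 CPM in control kidneys (log2 change 1.25 ± 0.19).

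Proximal tubule enzymes and transporters fell. Of 30 genes of proximal tubule metabolism, 21 were called lower and none higher (23 lower without replicate 5). Of 28 uptake and transport genes, 13 were lower and 1 higher (15 and 1 without it). Over all genes, 18.0% were called lower and 20.4% higher (18.9% and 19.1% without replicate 5). The summed level of the metabolism list was 23639 to 33822 CPM in treated replicates 1 to 4 and 6, 10507 CPM in replicate 5 and 39532 to 50384 CPM in controls, with no overlap. Cyp4b1, a cytochrome P450 that oxidises fatty acids and foreign compounds, had 365, 531 and 1112 CPM in 2 mg/kg kidneys, against 2659, 2870 and 3641 CPM in control kidneys (log2 change -2.19 ± 0.23, edgeR adjusted p = 2.43e-09). Dpys, of pyrimidine breakdown, had 3.37, 14.5 and 29.3 CPM in 2 mg/kg kidneys and 56.6, 63.8 and 66.6 CPM in control kidneys (log2 change -1.97 ± 0.26, edgeR adjusted p = 2.08e-07). Khk, which phosphorylates fructose (log2 change -0.85 ± 0.12), and Fbp1, of gluconeogenesis (log2 change -0.80 ± 0.14), were lower in 6 of 6 treated libraries. Among transporters, Slc47a1, which extrudes organic cations and toxins into urine, had 171 to 492 CPM in 2 mg/kg kidneys and 600 to 713 CPM in control kidneys (log2 change -0.81 ± 0.13). Slc6a18, of amino acid reabsorption, had 369 to 575 CPM in 2 mg/kg kidneys and 655 to 870 CPM in control kidneys (log2 change -0.65 ± 0.11). Aqp1, the water channel of the proximal tubule, had 624 to 921 CPM in the 5 other treated libraries, 119 CPM in replicate 5 and 1146 to 1350 CPM in controls (log2 change -0.93 ± 0.22, and -0.71 ± 0.09 without replicate 5). Transport was not lowered throughout: Slc22a2, the basolateral organic cation transporter that was singled out after its values were seen, had 77.4, 287 and 318 CPM in 2 mg/kg kidneys and 213, 256 and 298 CPM in control kidneys (edgeR adjusted p = 0.959).

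Other nephron segments and the vessels fell too. Of 16 genes of the loop of Henle and distal nephron, 11 were called lower and none higher. Of 15 collecting duct genes, 10 were lower and none higher (9 lower without replicate 5). Counts in this paragraph stand beside 18.0% of all genes called lower and 20.4% called higher (18.9% and 19.1% without replicate 5). Wnk4, a kinase that controls salt transport, had 128 to 180 CPM in 2 mg/kg kidneys and 210 to 244 CPM in control kidneys (log2 change -0.57 ± 0.09). Hsd11b2, which protects the mineralocorticoid receptor from corticosterone, had 74.6 to 136 CPM in 2 mg/kg kidneys and 169 to 221 CPM in control kidneys (log2 change -0.71 ± 0.11), and Aqp3, a basolateral water channel, had a log2 change of -0.78 ± 0.13 with 5 of 6 treated libraries below all controls. Of 12 podocyte genes, 6 were called lower and none higher (7 lower and 1 higher without replicate 5). Podxl, the anionic coat protein of podocyte foot processes, had 121, 157 and 161 CPM in 2 mg/kg kidneys, against 237, 242 and 278 CPM in control kidneys (log2 change -0.72 ± 0.08, edgeR adjusted p = 6.89e-09). Of 13 endothelial genes, 12 were called lower and none higher (10 without replicate 5). Kdr, the receptor VEGFR2 that endothelial cells need for survival, had 26.5, 38.5 and 49.1 CPM in 2 mg/kg kidneys and 77.5, 83.2 and 88.3 CPM in control kidneys (log2 change -1.07 ± 0.11, edgeR adjusted p = 1.62e-09), and Flt1, the other receptor of that growth factor, had a log2 change of -0.62 ± 0.08. The groups did not overlap for Podxl, Kdr or Flt1, with or without replicate 5.

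**Figure D2:**
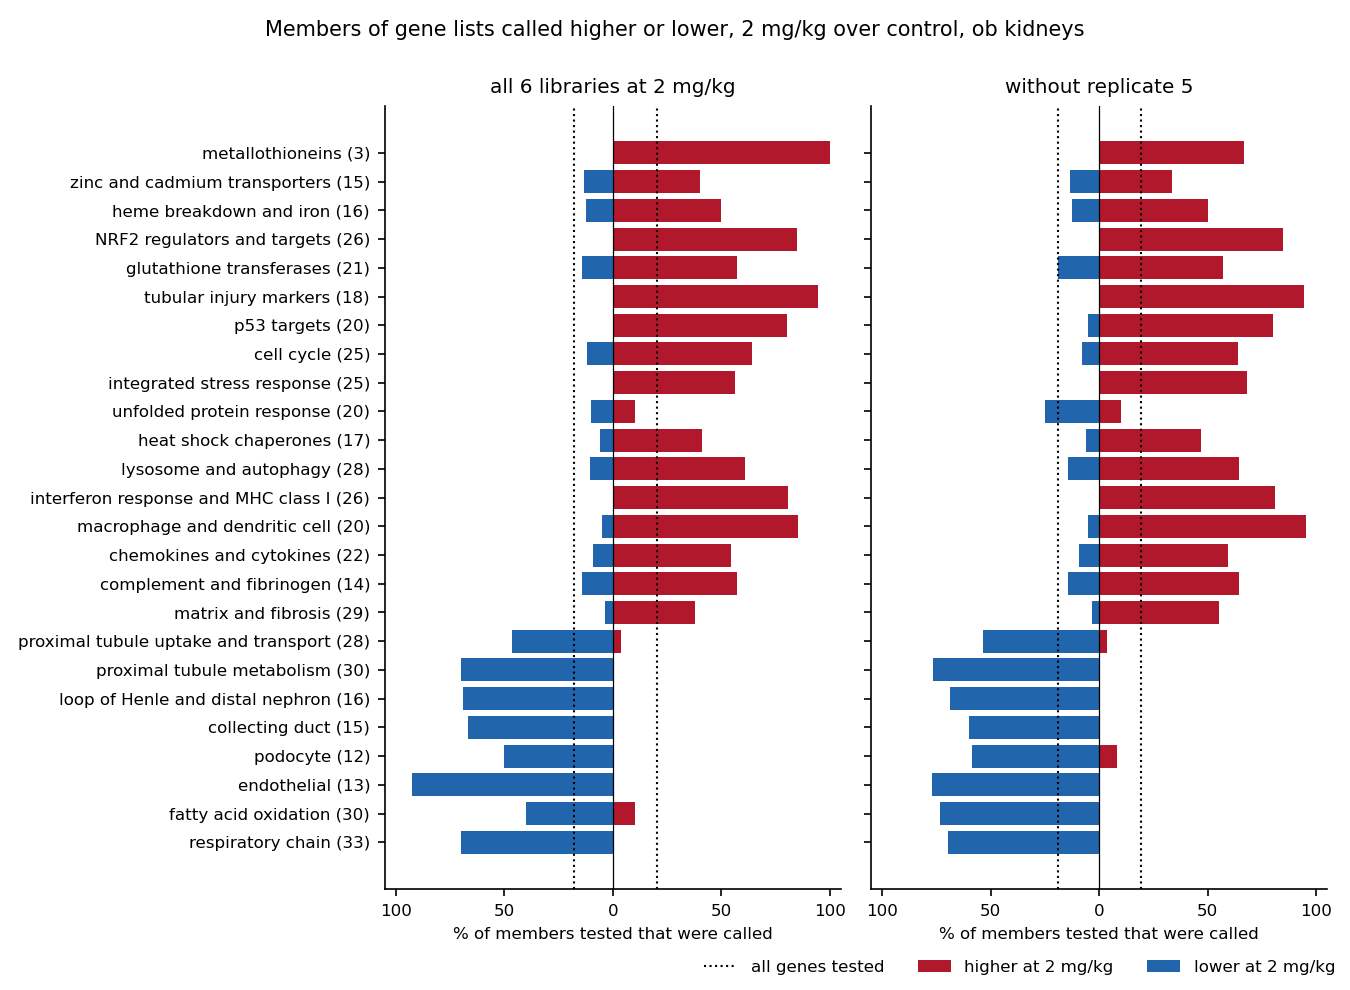
Bars give the percentage of each list's tested members (number in brackets) that edgeR called higher (red, right) or lower (blue, left) at 2 mg/kg over control, with all 6 treated libraries and without replicate 5, and dotted lines mark 20.4% higher and 18.0% lower over all genes (19.1% and 18.9% without replicate 5). NRF2 targets and injury markers stand at 22 of 26 and 17 of 18 members higher in both panels, and fatty acid oxidation has 12 of 30 lower with replicate 5 and 22 of 30 without it.

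Of the largest falls by the naming rule, several were hormone-related or transport genes. Cyp24a1, the enzyme that degrades active vitamin D (chr2:170482708-170497145), had 35.2, 48.2 and 66.0 CPM in 2 mg/kg kidneys, against 265, 581 and 743 CPM in control kidneys (log2 change -3.45 ± 0.41, edgeR adjusted p = 4.36e-08). The groups were clear of each other, though controls spread widely. Of 16 genes of calcium, phosphate and vitamin D handling, 10 were called lower and 2 higher (11 and 2 without replicate 5). Over all genes, 18.0% were called lower and 20.4% higher. Slc20a1, a phosphate importer found in most cells, was one of the 2 higher, with 82.9 to 217 CPM in 2 mg/kg kidneys and 37.9 to 44.9 CPM in control kidneys (log2 change 1.62 ± 0.15), while Fgfr1, which with klotho receives the phosphate hormone FGF23, had a log2 change of -0.47 ± 0.07. Of 12 genes that androgens raise in mouse kidney, 7 were called lower and 2 higher (7 and 1 without replicate 5), beside the same shares of all genes. Slco1a1, an organic anion transporter, had 0.748, 5.39 and 13.2 CPM in 2 mg/kg kidneys and 20.8, 45.7 and 102 CPM in control kidneys (log2 change -3.14 ± 0.45, edgeR adjusted p = 1.25e-06), and Cyp7b1, an oxysterol hydroxylase, had a log2 change of -1.47 ± 0.29. Prlr, the prolactin receptor, had 11.3, 28.2 and 43.8 CPM in 2 mg/kg kidneys and 93.6, 113 and 136 CPM in control kidneys (log2 change -1.98 ± 0.31, edgeR adjusted p = 5.57e-06). Slco4c1, a basolateral transporter of digoxin and thyroid hormone, had a log2 change of -2.26 ± 0.30. Slc7a12, an amino acid transporter, had 8.34 to 40.0 CPM in the other 5 treated libraries, 0.187 CPM in replicate 5 and 67.2 to 96.6 CPM in controls (log2 change -2.16 ± 0.49).

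The remaining falls of that rule joined genes of different roles. Hlf, a transcription factor of the clock output, had 7.35, 24.6 and 43.0 CPM in 2 mg/kg kidneys and 103, 125 and 129 CPM in control kidneys (log2 change -2.17 ± 0.22, edgeR adjusted p = 1.04e-09). Mogat1, a monoacylglycerol acyltransferase, had 16.7, 24.9 and 44.1 CPM in 2 mg/kg kidneys and 74.3, 78.4 and 105 CPM in control kidneys (log2 change -1.63 ± 0.16, edgeR adjusted p = 6.68e-10), and replicate 5 was the highest treated library. Mettl7a2, a methyltransferase-like protein, had 0.623 to 24.2 CPM in 2 mg/kg kidneys and 64.0 to 87.2 CPM in control kidneys (log2 change -2.89 ± 0.36). C8a, the alpha chain of complement component C8, had 0 to 3.57 CPM in 2 mg/kg kidneys and 7.25 to 14.2 CPM in control kidneys (log2 change -2.47 ± 0.36). Ceacam2, a cell adhesion protein, had a log2 change of -2.83 ± 0.33, and Nap1l5, a nucleosome assembly protein, one of -2.92 ± 0.26, and for each of these genes all 6 treated libraries lay below all controls. In the renin-angiotensin list 3 of 9 were called higher and 3 lower (4 and 2 without replicate 5), beside 20.4% and 18.0% of all genes. With so few members, these counts are not read as a change of the list. Mas1, a receptor for a short angiotensin peptide, had 1.68, 18.4 and 26.7 CPM in 2 mg/kg kidneys, against 0.148, 0.378 and 0.812 CPM in control kidneys (log2 change 5.22 ± 0.41, edgeR adjusted p = 5e-12). Replicate 5, at 1.68 CPM, was the lowest treated library and still above every control.

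Genes that the tumour suppressor p53 activates rose. Of 20 p53 genes, 16 were called higher and none lower (16 and 1 without replicate 5), beside 20.4% and 18.0% of all genes. Their summed level was 1169 to 1718 CPM in treated replicates 1 to 4 and 6, 3799 CPM in replicate 5 and 563 to 613 CPM in controls. Eda2r, a receptor of the TNF family (chrX:97333840-97377216), had 13.2, 19.1 and 39.2 CPM in 2 mg/kg kidneys, against 0.580, 0.785 and 1.12 CPM in control kidneys (log2 change 4.72 ± 0.28, edgeR adjusted p = 1.45e-15). Ccng1, cyclin G1, had 458, 536 and 871 CPM in 2 mg/kg kidneys and 129, 138 and 171 CPM in control kidneys (log2 change 2.06 ± 0.13, edgeR adjusted p = 1.86e-14). Plk2, a stress kinase, had a log2 change of 2.43 ± 0.20, and Bbc3, the pro-apoptotic protein PUMA, one of 2.09 ± 0.19. Replicate 5 was the highest library for all 4 genes. Of 25 cell cycle genes, 16 were called higher and 3 lower (16 and 2 without replicate 5), although their levels were low: Ccna2, cyclin A2, had 4.27 to 8.79 CPM in 2 mg/kg kidneys and 1.15 to 2.44 CPM in control kidneys (log2 change 1.66 ± 0.19). Rrm2, which makes deoxynucleotides (log2 change 1.60 ± 0.23), and Mcm6, of the replication helicase (log2 change 0.69 ± 0.09), were higher in 6 of 6 treated libraries. Of 20 genes of apoptosis and necroptosis, 8 were called higher and 5 lower with replicate 5, and 4 and 4 without it, beside 19.1% and 18.9% of all genes. Tnfrsf1a, the main TNF receptor, had 71.2 to 105 CPM in 2 mg/kg kidneys and 54.1 to 61.6 CPM in control kidneys (log2 change 0.50 ± 0.08).

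Protein quality pathways did not move alike. Of 25 genes of the integrated stress response, which factor ATF4 drives when amino acids are short, 14 were called higher and none lower (17 and 0 without replicate 5). Aldh1l2, a mitochondrial folate enzyme, had 3.61, 10.6 and 12.2 CPM in 2 mg/kg kidneys, against 0.928, 1.4 and 1.68 CPM in control kidneys (log2 change 2.81 ± 0.25, edgeR adjusted p = 5.75e-11). Phgdh, the first enzyme of serine synthesis, had 43.9 to 58.2 CPM in 2 mg/kg kidneys and 14.3 to 24.1 CPM in control kidneys (log2 change 1.56 ± 0.20), and Sars, the seryl-tRNA synthetase, had a log2 change of 0.54 ± 0.08. Of 20 genes of the unfolded protein response of the endoplasmic reticulum, 2 were called higher and 2 lower (2 and 5 without replicate 5). The shares of all genes were 20.4% and 18.0% (19.1% and 18.9% without replicate 5). The median log2 change of the list was 0.00. Herpud1, of protein disposal at that membrane, had 227 to 319 CPM in the other 5 treated libraries, 462 CPM in replicate 5 and 423 to 553 CPM in controls (log2 change -0.77 ± 0.12). Dnajb9, a chaperone there, had a log2 change of 0.96 ± 0.16 with replicate 5 and 0.60 ± 0.07 without it. Of 17 heat shock chaperones, 7 were called higher and 1 lower (8 and 1 without replicate 5), beside 20.4% and 18.0% of all genes. Hsp90aa1 had 355 to 570 CPM in 2 mg/kg kidneys and 201 to 252 CPM in control kidneys (log2 change 0.95 ± 0.10). Bag3, a co-chaperone of selective autophagy, had a log2 change of 0.90 ± 0.13. Of 31 proteasome subunits, 7 were called higher and 2 lower with replicate 5, and 5 and 4 without it, shares near or below those over all genes.

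Lysosomal genes rose. Of 28 genes of lysosome and autophagy, 17 were called higher and 3 lower (18 and 4 without replicate 5), beside 20.4% and 18.0% of all genes. The summed level was 10822 to 12693 CPM in treated replicates 1 to 4 and 6, 13166 CPM in replicate 5 and 7158 to 8005 CPM in controls. Psap, the precursor of the saposins that help break down sphingolipids, had 3600, 4260 and 4515 CPM in 2 mg/kg kidneys, against 1365, 1500 and 1707 CPM in control kidneys (log2 change 1.47 ± 0.08, edgeR adjusted p = 1.7e-16). Glb1, the beta-galactosidase, had 225 to 331 CPM in 2 mg/kg kidneys and 127 to 164 CPM in control kidneys (log2 change 1.02 ± 0.08). No treated library overlapped a control for either gene.

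Energy genes were lower in part. Of 33 genes of the respiratory chain encoded in the nucleus, 23 were called lower and none higher, with and without replicate 5, by small amounts: Ndufa4, of the terminal oxidase, had 360 to 451 CPM in 2 mg/kg kidneys and 484 to 552 CPM in control kidneys (log2 change -0.36 ± 0.06), and Uqcrc2, a core protein of complex III, had a log2 change of -0.46 ± 0.08. The share of reads from the mitochondrial genome was 9.16% to 11.25% in the other 5 treated libraries, 5.99% in replicate 5 and 7.25% to 9.08% in controls. Of 30 genes of fatty acid oxidation, 12 were called lower and 3 higher with replicate 5, and 22 lower and none higher without it. Acadm, the medium-chain dehydrogenase (log2 change -0.65 ± 0.10), and Hadh (log2 change -0.47 ± 0.07), both of the mitochondrial spiral, were lower in 6 of 6 treated libraries. Acaa2, the thiolase of the same spiral, had 118 to 168 CPM in the other 5 treated libraries, 314 CPM in replicate 5 and 288 to 390 CPM in controls (log2 change -1.07 ± 0.17). Of 20 glycolysis and glucose uptake genes, 9 were called higher and 4 lower (6 and 4 without replicate 5). Over all genes, 20.4% were called higher and 18.0% lower (19.1% and 18.9% without replicate 5), so the share called lower was near that of all genes. The smallest p of that list was that of Pdk1, a pyruvate dehydrogenase kinase. Pdk1 had 30.9 to 42.8 CPM in 2 mg/kg kidneys and 56.8 to 71.3 CPM in control kidneys (log2 change -0.82 ± 0.07). Of 27 genes of sterol and fatty acid synthesis, 9 were called higher and 1 lower (11 and 1 without replicate 5), beside the same shares of all genes. The other 17 were not called with replicate 5. Dhcr7, of the last step of cholesterol synthesis, had a log2 change of 0.87 ± 0.12.

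Many inflammatory and immune genes rose. Of 20 macrophage and dendritic cell markers, 17 were called higher and 1 lower (19 and 1 without replicate 5), beside 20.4% and 18.0% of all genes. Their summed level was 1001 to 1590 CPM in treated replicates 1 to 4 and 6 and 538 to 652 CPM in controls, whereas replicate 5, at 256 CPM, was below every control. Lyz2, macrophage lysozyme, had 90.1 to 218 CPM in the other 5 treated libraries, 21.1 CPM in replicate 5 and 21.1 to 35.3 CPM in controls (log2 change 1.82 ± 0.28). The opposite held for Cd68, a lysosomal glycoprotein of macrophages, at 5.89 to 9.84 CPM in the other 5 treated libraries, 45.0 CPM in replicate 5 and 3.38 to 4.55 CPM in controls (log2 change 1.87 ± 0.32, and 1.06 ± 0.17 without replicate 5). Cd14, a coreceptor for bacterial lipopolysaccharide, was also highest in replicate 5, at 58.8 CPM against 8.69 to 17.3 CPM in the other 5 (log2 change 1.69 ± 0.28, and 1.00 ± 0.14 without replicate 5). Of 22 chemokines and cytokines, 12 were called higher and 2 lower (13 and 2 without replicate 5). The summed level of this list did not rise. It was 452.8 to 527.5 CPM in the other 5 treated libraries, 216.5 CPM in replicate 5 and 421.4 to 548.3 CPM in controls. Il1rn, the natural blocker of the interleukin 1 receptor, had 2.03, 4.29 and 9.57 CPM in 2 mg/kg kidneys, against 0.0580, 0.0942 and 0.237 CPM in control kidneys (log2 change 5.34 ± 0.59, edgeR adjusted p = 9.39e-09). Its control levels lay near the worth of 3 counts, 0.0891 to 0.112 CPM, so the size of its fold is imprecise. Lif, a cytokine of the interleukin 6 family, had 3.24 to 22 CPM in 2 mg/kg kidneys and 0.190 to 1.24 CPM in control kidneys (log2 change 3.84 ± 0.43, and 3.24 ± 0.35 without replicate 5). Csf1, the growth factor of macrophages, had 19.2 to 35.1 CPM in 2 mg/kg kidneys and 9.25 to 15.1 CPM in control kidneys (log2 change 1.13 ± 0.17). Ccl2, which draws monocytes, had 5.04 to 8.79 CPM in the other 5 treated libraries, 0.312 CPM in replicate 5 and 0.193 to 0.592 CPM in controls (log2 change 3.71 ± 0.57). Of 15 NF-kB subunits and feedback genes, 9 were called higher and 1 lower (10 and 1 without replicate 5), among them Nfkb2 (log2 change 1.19 ± 0.12) and Relb (log2 change 1.06 ± 0.12), subunits of the noncanonical pathway.

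Interferon-responsive and complement genes rose as well, and matrix genes rose in part. Of 26 interferon response and MHC class I genes, 21 were called higher and none lower, with and without replicate 5. Bst2, tetherin, which holds back budding viruses, had 46.0, 50.4 and 56.6 CPM in 2 mg/kg kidneys, against 14.6, 16.1 and 19.1 CPM in control kidneys (log2 change 1.62 ± 0.15, edgeR adjusted p = 1.17e-10), and all treated libraries lay within a narrow band. B2m, the light chain of MHC class I, had a log2 change of 0.98 ± 0.12 and Stat2, a signal carrier of interferon, one of 0.78 ± 0.08. Of 14 complement and fibrinogen genes, 8 were called higher and 2 lower (9 and 2 without replicate 5). Cfi, the complement inactivator factor I, had 26.6, 66.0 and 90.4 CPM in 2 mg/kg kidneys and 4.09, 4.96 and 5.38 CPM in control kidneys (log2 change 3.68 ± 0.23, edgeR adjusted p = 1.38e-14). C3, the central complement component (log2 change 2.18 ± 0.26), and C4b (log2 change 2.06 ± 0.24) were higher in 6 of 6 treated libraries. Of 29 matrix and fibrosis genes, 11 were called higher and 1 lower with replicate 5, and 16 and 1 without it. With replicate 5, 17 were not called, and the shares of all genes were 20.4% higher and 18.0% lower. Ccn1, a secreted matricellular protein, had 40.0 to 107 CPM in 2 mg/kg kidneys and 14.0 to 20 CPM in control kidneys (log2 change 1.93 ± 0.22), and Col4a1 and Col4a2, the basement membrane collagen chains, had log2 changes of 0.82 ± 0.12 and 0.60 ± 0.07. Of 16 immediate early genes, 12 were called higher and 1 lower, or 11 and 3 without replicate 5. Myc had 11.6 to 34.4 CPM in 2 mg/kg kidneys and 4.68 to 6.99 CPM in control kidneys (log2 change 1.97 ± 0.23), and Klf6, a zinc finger factor, had a log2 change of 1.44 ± 0.23 with replicate 5 and 0.91 ± 0.12 without it. Dusp1, a phosphatase that switches off MAP kinases, went the other way, at 25.2 to 37.0 CPM in the other 5 treated libraries, 57.5 CPM in replicate 5 and 55.7 to 103 CPM in controls (log2 change -1.17 ± 0.17).

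Markers of other tissues and blood cells that a kidney piece can carry were counted as well. Of 11 markers of perirenal fat 1 was called lower, and of 3 tested for the adrenal gland 1 was called higher. Over all genes, 20.4% were called higher and 18.0% lower (19.1% and 18.9% without replicate 5). Of 8 markers of urothelium and 4 of neutrophils, 0 were called by edgeR, 0 had an unadjusted p below 0.05 and 0 were called by DESeq2. Red blood cell genes, 4 of 7 called lower (5 without replicate 5), included Slc4a1, which is also in the collecting duct list. They summed to 138 to 356 CPM in treated replicates 1 to 4 and 6, to 5.90 CPM in replicate 5 and to 201 to 563 CPM in controls. Of 16 T, NK and B cell markers, 2 were called each way with replicate 5, below those shares of all genes. Without it, 7 were called higher and 2 lower. The list summed to 278 CPM in treated replicate 1. There Ighm and Igkc, immunoglobulin genes singled out after their values were seen, had 163 CPM and 81.6 CPM. In the other treated libraries the list summed to 5.0 to 53 CPM, and in controls to 28.1 to 52.9 CPM. The part of these cells in other results was not tested.

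Replicate 5 lay on the same side of the controls as the other treated libraries for most called genes, often beyond them. Of 3485 genes tested both ways and called higher without it, replicate 5 lay above every control in 2369 and above the other 5 treated libraries in 1546, and it lay below every control in 595. Of 3472 genes called lower without it, it lay below every control in 2566, below the other 5 in 1972, and above every control in 502. Each other treated replicate was set in the same way against the calls made without it. Of genes called higher, 42 to 94 lay below every control in it, and of genes called lower, 7 to 47 lay above. Same-side shares were 68.4% to 81.9% of genes called higher (replicate 5: 68.0%) and 68.7% to 86.3% of those called lower (replicate 5: 73.9%). Over all 18180 genes, the gap of replicate 5 to the nearest treated library exceeded the 5% limit of Dixon's test in 27.12%. The share was 0.25% to 0.68% for the other 5 treated libraries and 0.51% to 1.33% for the controls. The test divides the gap by the range of the group, so a far replicate 5 lowers the shares of the other 5.

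Among the genes highest in replicate 5 against the mean of the other 5, Pdk4, the pyruvate dehydrogenase kinase of fasting, had 2156 CPM in replicate 5, 20.3 to 33.4 CPM in the other 5 and 12.6 to 36.4 CPM in controls, and its call (log2 change 4.41 ± 0.83, edgeR adjusted p = 7.72e-05) was lost without replicate 5 (log2 change 0.60 ± 0.27, edgeR adjusted p = 0.0771). Cyp4a14, a fatty acid hydroxylase, had 1337 CPM in replicate 5, 46.1 to 87.5 CPM in the other 5 and 272 to 606 CPM in controls. It was called lower without replicate 5 (log2 change -2.63 ± 0.51, edgeR adjusted p = 8.09e-05) and not with it (log2 change -0.49 ± 0.67, edgeR adjusted p = 0.596). Krt20, a keratin of injured tubules, had 360 CPM in replicate 5, 4.38 to 13.2 CPM in the other 5 and 0.177 to 2.26 CPM in controls. Crabp1, which binds retinoic acid (73.7 CPM in replicate 5, 0.280 to 1.43 CPM in the other 5), Acsbg1, an acyl-CoA synthetase (103 CPM and 3.01 to 5.69 CPM), and Tnnt2, cardiac troponin T (64.1 CPM and 0.981 to 2.32 CPM), were also among them, as was Lcn2. Krt20, Crabp1, Acsbg1 and Tnnt2 were called higher with replicate 5 and without it, at log2 changes of 2.85 ± 0.50, 3.16 ± 0.88, 1.72 ± 0.34 and 1.01 ± 0.39 without it.

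Among the genes lowest in replicate 5 against the other 5, Slc34a1, the main phosphate transporter of the proximal tubule (chr13:55398187-55415592), had 16.6 CPM in replicate 5, 3024 to 4451 CPM in the other 5 and 4905 to 5964 CPM in controls. It was called lower without replicate 5 (log2 change -0.56 ± 0.09, edgeR adjusted p = 9.9e-06) and not with it (log2 change -0.82 ± 0.43, edgeR adjusted p = 0.126). Slc7a13, a transporter of aspartate, glutamate and cystine in the straight segment, had 0.187 CPM in replicate 5, 108 to 218 CPM in the other 5 and 289 to 607 CPM in controls. Mep1b, a brush border protease (0.0623 CPM in replicate 5, 32.4 to 86.8 CPM in the other 5, 81.8 to 160 CPM in controls), and Nat8f6, an N-acetyltransferase (0.187 CPM, 28.9 to 72.9 CPM and 121 to 178 CPM), were nearly absent there. Kynu, which breaks down kynurenine, had no read in replicate 5 and 16.3 to 26.6 CPM in the other 5, with controls at 26.0 to 40.5 CPM. It was called lower without replicate 5 (log2 change -0.68 ± 0.18, edgeR adjusted p = 0.00302) and not with it (log2 change -0.94 ± 0.40, edgeR adjusted p = 0.0587). Pvalb, a calcium buffer of the distal convoluted tubule, also had no read in replicate 5, against 6.32 to 12.3 CPM in the other 5 and 16.8 to 25.7 CPM in controls. Kctd21 (0 CPM in replicate 5, 6.02 to 8.28 CPM in the other 5, 5.42 to 7.03 CPM in controls) and Tmem207 (0.0623 CPM, 8.60 to 14.5 CPM and 9.99 to 16.8 CPM) were not called with or without it.

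**Figure D3:**
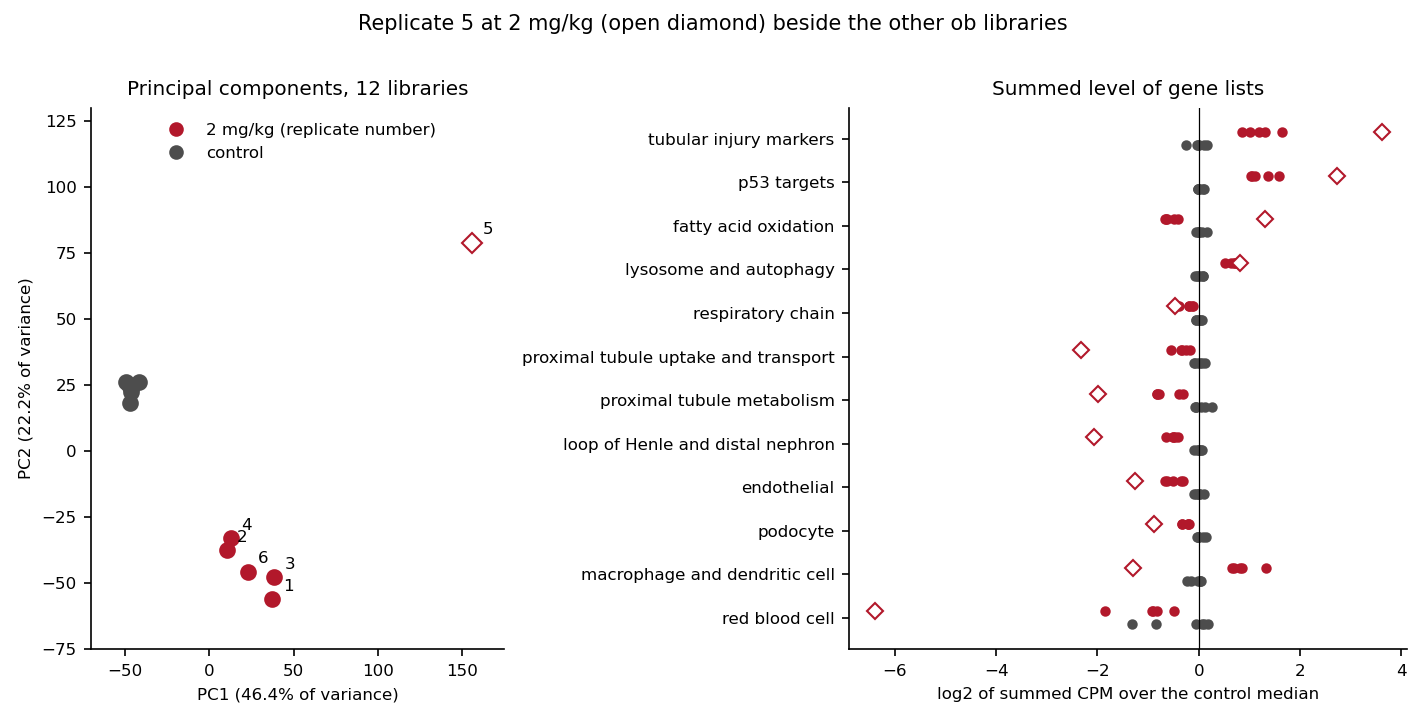
Left, the 12 ob libraries on the first 2 principal components (46.4% and 22.2% of the variance), with treated replicates numbered. Right, the summed CPM of 12 gene lists in each library as log2 of the ratio to the control median, treated libraries (red) above controls (grey) and replicate 5 as an open diamond, where replicate 5 is far right of the others for injury markers (16902 CPM) and far left for red blood cell genes (5.9 CPM).

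The dose of 2 mg/kg was set against 0.5 mg/kg in the same genotype to show where the higher dose differed. edgeR called 5406 of 18180 genes (29.7%), 2772 higher (15.2%) and 2634 lower (14.5%) at 2 mg/kg, and 5080 of 18380 (27.6%; 13.4% higher and 14.3% lower) without replicate 5. Scaling by library size alone moved the median log2 difference of all genes to 0.12 and the calls to 4303 higher and 1683 lower. Mt1 was at 3942 to 5414 CPM at 2 mg/kg and 2026 to 3205 CPM at 0.5 mg/kg (log2 difference 0.65 ± 0.13, edgeR adjusted p = 0.000381), and Hmox1 at 1007 to 2079 CPM and 507 to 727 CPM (log2 difference 1.12 ± 0.16). The list counts in this paragraph come from the fit with replicate 5, and none was made without it. The injury list, 17 of 18 called higher than at 0.5 mg/kg, and the p53 list, 17 of 20, stood beside 15.2% of all genes called higher. Injury markers summed to 16902 CPM in replicate 5 and to 2500 to 4346 CPM in treated replicates 1 to 4 and 6. For Havcr1, the levels were 63.8 to 530 CPM at 2 mg/kg and 7.38 to 27.3 CPM at 0.5 mg/kg (log2 difference 3.74 ± 0.76). Of the proximal tubule lists, 20 of 28 transport genes and 22 of 30 metabolism genes were called lower at 2 mg/kg than at 0.5 mg/kg, and so were 31 of 33 respiratory chain genes, beside 14.5% of all genes.

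The differences named next are the 4 largest each way by the naming rule, taken with replicate 5. Slc5a4b was at 5.52 to 53 CPM at 2 mg/kg and 0.144 to 1.01 CPM at 0.5 mg/kg (log2 difference 5.71 ± 0.62, edgeR adjusted p = 5.67e-08), and Slc7a11 at 5.96 to 64.5 CPM and 0 to 1.37 CPM (log2 difference 4.78 ± 0.58, and 4.18 without replicate 5). Lcn2 and Krt20 had log2 differences of 5.60 ± 0.85 and 5.23 ± 0.88 with replicate 5 and of 1.94 and 2.26 without it. Among falls, Slco1a1 was at 0.748 to 13.2 CPM at 2 mg/kg and 23.2 to 161 CPM at 0.5 mg/kg (log2 difference -3.73 ± 0.46), and Mettl7a2 at 0.623 to 24.2 CPM and 43.1 to 89.3 CPM (log2 difference -2.50 ± 0.36). Ceacam2 and C8a differed by -2.55 ± 0.33 and -2.33 ± 0.36. Some genes were called at 2 mg/kg over control while the doses did not pass the test: Psap was at 3600 to 4515 CPM at 2 mg/kg and 3307 to 4805 CPM at 0.5 mg/kg (log2 difference 0.09 ± 0.08, edgeR adjusted p = 0.416), Slc39a5 had a log2 difference of 0.14 ± 0.13, Slc30a2 one of 0.11 ± 0.14 and Mas1 one of 0.47 ± 0.32.

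**Figure D4:**
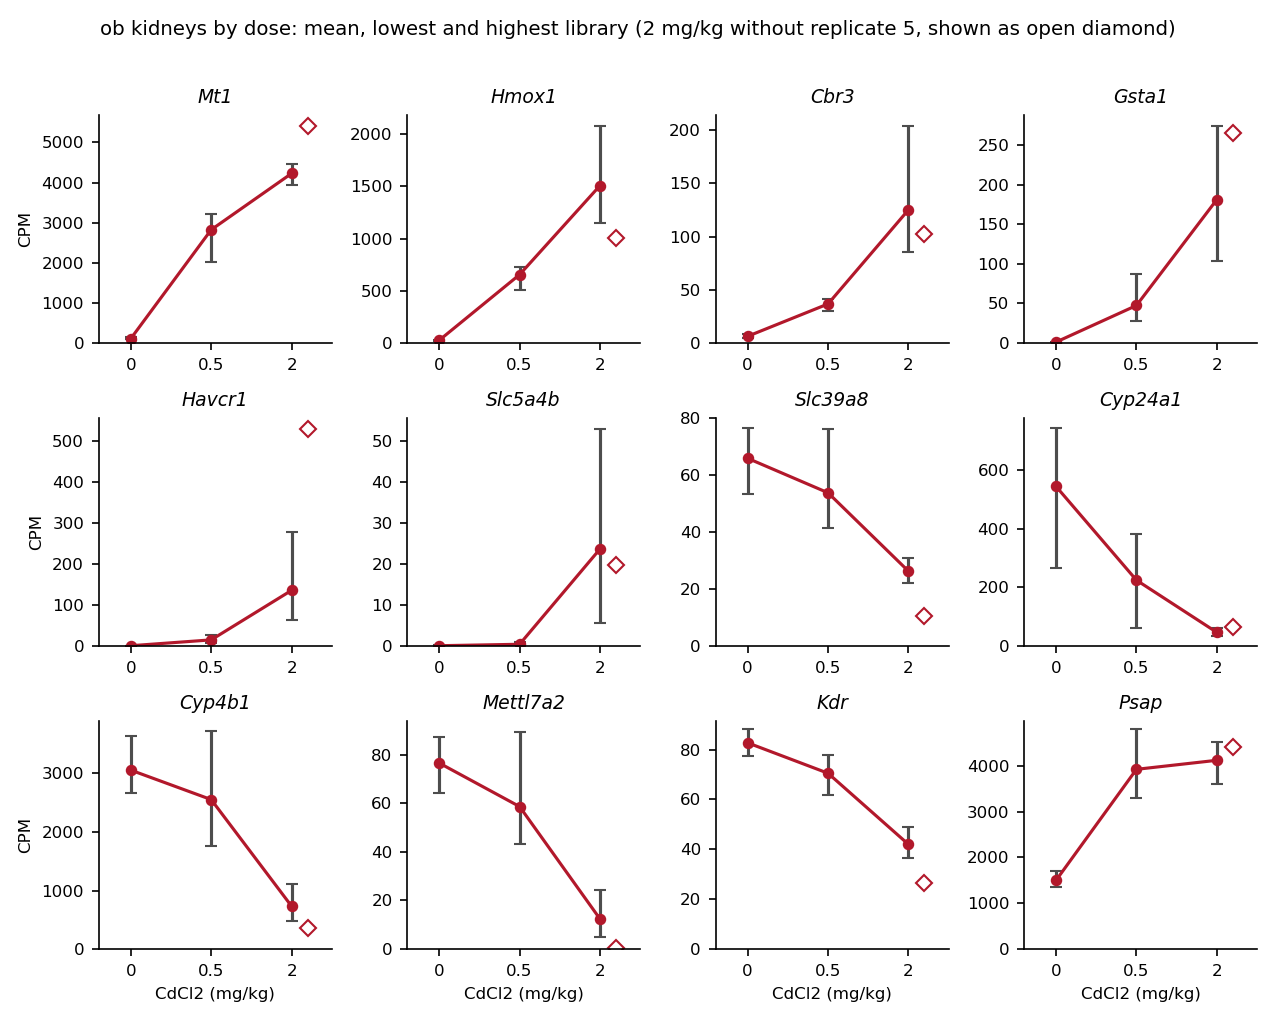
CPM of 12 genes in ob kidneys at 0, 0.5 and 2 mg/kg, as the mean of 6 libraries (5 at 2 mg/kg) with bars from the lowest to the highest library, and replicate 5 at 2 mg/kg as an open diamond. Mt1 and Psap had most of their rise by 0.5 mg/kg, whereas Slc5a4b stayed at 0.144 to 1.01 CPM at 0.5 mg/kg and reached 5.52 to 53 CPM at 2 mg/kg without replicate 5.

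The response to 2 mg/kg was compared between genotypes by testing the ob change minus the b6j change. edgeR called 376 of 18180 genes (2.07%), 193 higher (1.06%) and 183 lower (1.01%) in ob, and 758 of 18380 (4.12%) without replicate 5, 2.2% higher and 1.93% lower. Leaving out single b6j controls took the count as low as 216. Havcr1 responded more in ob (log2 difference 5.73 ± 1.13, edgeR adjusted p = 0.00446). Treated kidneys had 63.8 to 530 CPM in ob and 112 to 232 CPM in b6j, and untreated kidneys 0.516 to 1.18 CPM in ob and 2.15 to 181 CPM in b6j, so that treated levels overlapped between genotypes and untreated levels did not. Without b6j control replicate 4, the library at the top of that range, the difference was 3.13 (edgeR adjusted p = 0.018), and limma-voom with sample weights gave 2.66 (adjusted p = 0.249). Slc7a11 differed by 4.30 ± 1.01 (edgeR adjusted p = 0.019), with treated ob at 5.96 to 64.5 CPM, untreated ob at 0 to 0.129 CPM, treated b6j at 5.84 to 14.2 CPM and untreated b6j at 0 to 0.994 CPM. Popdc3 passed the test too (edgeR adjusted p = 0.00511), with treated levels of 9.95 to 37.0 CPM in ob and 8.56 to 15.8 CPM in b6j, but its ob controls held only 3 reads. The differences of Lcn2 and Pdk4 were lost without replicate 5 (edgeR adjusted p = 0.153 and 0.098), as was that of Tnnt2 (log2 difference 4.06 ± 1.07 with it and 1.16 without it, edgeR adjusted p = 0.0376 and 0.264).

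Genes with a lower response in ob included several that started higher in untreated ob kidneys. Prlr fell to 11.3 to 43.8 CPM in treated ob kidneys, against 93.6 to 136 CPM in untreated ob kidneys, and had 8.02 to 20.9 CPM in treated b6j and 3.09 to 14.7 CPM in untreated b6j kidneys (log2 difference -3.31 ± 0.45, edgeR adjusted p = 4.75e-05). Slc7a12, like Prlr, was higher in untreated ob than in untreated b6j kidneys, at 0.187 to 40.0 CPM in treated ob, 67.2 to 96.6 CPM in untreated ob, 1.78 to 14.6 CPM in treated b6j and 3.12 to 10.5 CPM in untreated b6j (log2 difference -2.90 ± 0.71, edgeR adjusted p = 0.0233). That call was lost when the 4 groups compared were fitted alone (edgeR adjusted p = 0.0702). Ugt1a2 and Ugt1a10, UDP-glucuronosyltransferases of 1 gene cluster that share exons, differed by -4.03 ± 0.88 and -3.31 ± 0.46. Ugt1a2 was at 10 to 160 CPM in treated ob and 4.21 to 40.7 CPM in untreated ob, and at 12.8 to 21.7 CPM in treated b6j and 0.0605 to 0.404 CPM in untreated b6j. The list counts that follow come from the fit with replicate 5, and none was made without it. Among vessel and podocyte genes, 5 of 13 endothelial and 3 of 12 podocyte members responded lower in ob, beside 1.01% of all genes. They included Kdr (log2 difference -0.80 ± 0.15) and Podxl (-0.64 ± 0.11). Replicate 5 had the lowest treated sums of these lists, at 403.8 CPM (endothelial) and 328.5 CPM (podocyte). Treated replicates 1 to 4 and 6 had 607.5 to 781.9 CPM and 483.1 to 532.2 CPM. Lysosomal genes included 4 of 28 with a higher response in ob, beside 1.06% of all genes. None of the 3 metallothioneins was called, too few members to read against that share. Mt1 had a log2 difference of 0.58 ± 0.19 (edgeR adjusted p = 0.0948).

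**Figure D5:**
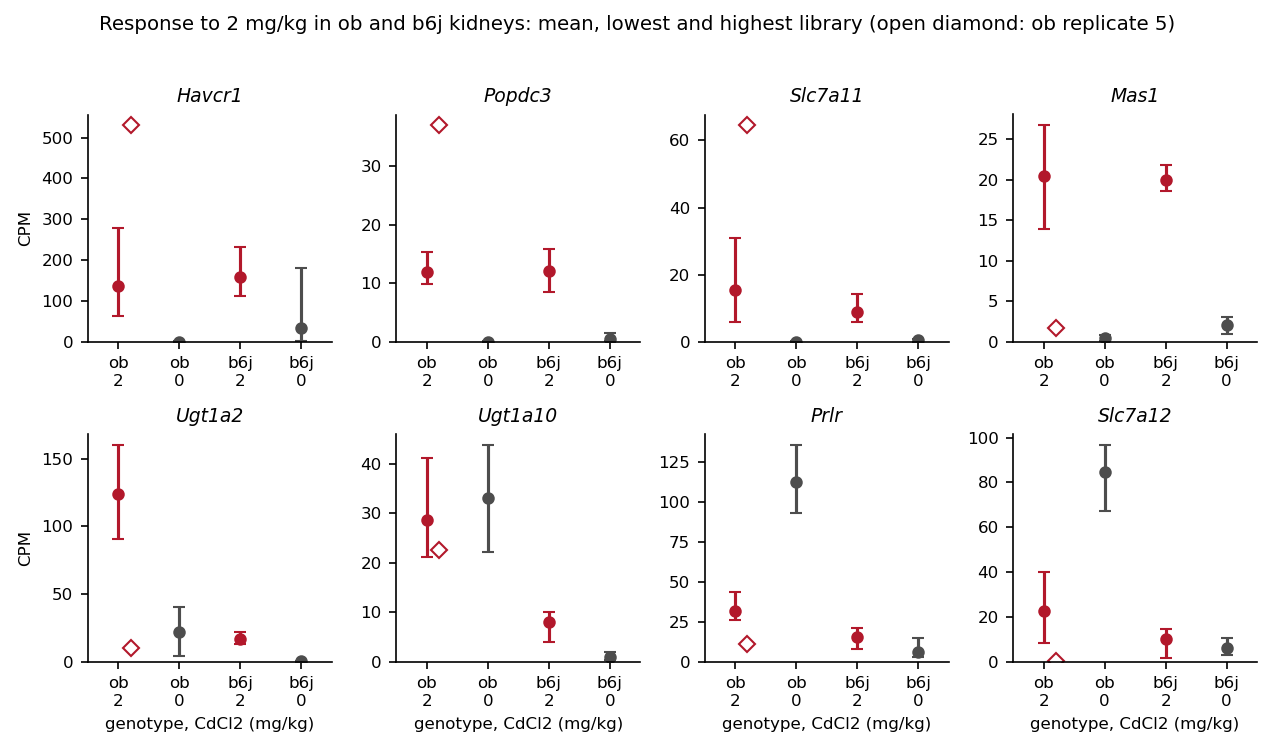
CPM of 8 genes in ob and b6j kidneys at 2 mg/kg (red) and untreated (grey), as the mean of 6 libraries (5 for treated ob) with bars from the lowest to the highest library and ob replicate 5 as an open diamond. Treated levels of Havcr1 and Popdc3 overlap between genotypes, while Prlr and Slc7a12 are highest in untreated ob kidneys.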

How the data were processed

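Total RNA from snap frozen kidneys was sequenced, per the labels' protocols. Per the submitters' processing notes, reads passed through bcl2fastq, Trimmomatic, FastQC and STAR with build GRCm38. Per the file headers, the deposited counts are whole reads per gene from featureCounts 1.4.6-p2 with Ensembl 96, with no strand option in the command, so reads over genes on both strands are not assigned. Symbols came from GENCODE annotation and promoters from RefSeq.

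The deposited counts of all 36 libraries were fitted with 1 mean per group by edgeR 4.0.16 (R 4.3.3; TMM scaling, filterByExpr, quasi-likelihood test), with Benjamini-Hochberg adjustment over 18180 genes and a threshold of 0.05. An SE is the log2 change divided by the square root of F. CPM values use TMM-scaled library sizes. A total of 3 counts gave 0.0891 to 0.112 CPM, and this limit covers counting error only.

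The genes and 41 gene lists were chosen with earlier results of these data known. The text names Mt1, Mt2, Hmox1, Havcr1 and Lcn2, the 12 largest rises and 12 largest falls with a mean of at least 5 CPM called with and without replicate 5, up to 4 members per list by smallest p and members that give its range, 8 genes each way for replicate 5, and 4 each way for the other comparisons. Some genes that these rules name are not reported here. Rasd1, Gm45774, Ighm, Igkc and Slc22a2 were singled out after their values were seen. Alternatives were DESeq2 1.42.0, limma 3.58.1 voom, other scalings and filters, the compared groups alone, a replicate block and each replicate left out. The scripts were tested on simulated data.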

Additional observations from a re-analysis of the deposited data

Results flagged for a closer look

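Of the 123 genes named by rule, 39 library values stood apart from the other 5 of their group by Dixon's test at its 95% critical value. Chance alone gives such a gap in about 1 in 20 groups. Treated replicate 5 accounted for 27 of them, and 9 of these 27 are of genes named for being highest or lowest in it, to which that chance rate does not apply. It stood above the other 5 treated libraries for Mt1 (5414 CPM), Lcn2 (1558 CPM), Popdc3 (37.0 CPM), Psg29 (76.1 CPM), Nyx (28.5 CPM), Gdf15 (147 CPM), Tnfrsf12a (326 CPM), Cd14 (58.8 CPM) and Cd68 (45.0 CPM). It did so too for Lif (22 CPM), Col4a1 (491 CPM), Dnajb9 (210 CPM), Acaa2 (314 CPM), B2m (648 CPM), Dusp1 (57.5 CPM), Klf6 (250 CPM), Tnfrsf1a (105 CPM) and Crabp1 (73.7 CPM), and for Pdk4 (2156 CPM), Krt20 (360 CPM), Tnnt2 (64.1 CPM), Acsbg1 (103 CPM) and Cyp4a14 (1337 CPM). It stood below them for Aqp1 (119 CPM), Podxl (121 CPM), Slc34a1 (16.6 CPM) and Kctd21 (0 CPM). Among controls, a single library stood high for Popdc3 (0.0888 CPM in replicate 4), Psg29 (0.116 CPM in replicate 2), Gstm3 (0.551 CPM in replicate 2), Ceacam3 (0.774 CPM in replicate 6), Mogat1 (105 CPM in replicate 3) and Relb (8.14 CPM in replicate 4), and for C3 (85.3 CPM in replicate 5), Phgdh (24.1 CPM in replicate 6), Plk2 (13.8 CPM in replicate 4) and Pdk4 (36.4 CPM in replicate 6). A single control stood low for Cd44 (1.24 CPM in replicate 5) and Dnajb9 (45.8 CPM in replicate 6).

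The response to 2 mg/kg differed between ob and b6j kidneys, by edgeR's test of the difference itself at an adjusted p below 0.05, for 32 of the named genes. The values here are log2 differences, ob minus b6j. They were above 0 for Hmox1 (0.90), Havcr1 (5.73), Slc7a11 (4.30), Slc30a2 (0.93), Tnfrsf12a (1.86), Aldh1l2 (1.63), Hsp90aa1 (0.56) and Ccng1 (0.75), and for Psap (0.46), Glb1 (0.64) and Mas1 (1.97). Those of Lcn2 (4.38), Pdk4 (4.87) and Tnnt2 (4.06) lost their call without replicate 5. The value of Popdc3 (5.24) depends on the prior count of the fit, since its ob controls held 3 reads in all. The differences were below 0 for Slco1a1 (-2.23), Ceacam2 (-2.63), Mettl7a2 (-2.55), C8a (-1.81), Slco4c1 (-2.39), Slc7a12 (-2.90), Prlr (-3.31) and Slc39a8 (-1.56), and for Dpys (-1.69), Podxl (-0.64), Kdr (-0.80), Flt1 (-0.46), Pdk1 (-0.76), Cyp7b1 (-1.68), Kynu (-2.65), Ugt1a2 (-4.03) and Ugt1a10 (-3.31).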

How the results depend on the processing

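The count of 6976 genes called between 2 mg/kg and control kidneys was 6741 to 7366 when each treated replicate was left out in turn and 6451 to 6631 when each control was. Estimating the spread from the 2 groups alone gave 3880 calls, with a common dispersion of 0.07924 there and 0.02172 when replicate 5 was also left out. For 2 mg/kg against 0.5 mg/kg, that setting gave 1889 calls in place of 5406. Leaving out each 2 mg/kg replicate gave 5080 to 5965 calls and each 0.5 mg/kg replicate 4685 to 4986. Scaling by library size alone put 71.9% of those calls on the higher side, against 51.3% with TMM.

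The 376 genes whose response differed between ob and b6j depended more on these choices. DESeq2 gave 748, limma-voom with sample weights 1075, no filter on low counts 239, library size alone 590 (21.5% of them higher in ob, against 51.3%; the median of all genes was -0.10), the compared groups alone 194, and those groups without replicate 5 747. Leaving out 1 library at a time gave 216, without b6j control replicate 3, to 758, without treated ob replicate 5. It gave 748 without treated ob replicate 6, 244 without treated b6j replicate 1 and 246 without b6j control replicate 5. Calls went to 61.0% higher in ob with DESeq2 and 64.4% without treated ob replicate 6. The cause was not tested.

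Of 139 values of named genes, 123 kept their direction and their side of the threshold under every alternative that gave a value, and DESeq2 gave no adjusted p for 10. Kctd21, which was not called (log2 change 0.02), was -0.05 with the replicate block, -0.076, -0.088 and -0.034 without treated replicates 2, 3 and 4, and 0.292 without replicate 5. Mt3 lost its call in 12 alternatives. Mep1b lost it without treated replicate 3 (edgeR adjusted p = 0.0584) and without control replicate 3 (edgeR adjusted p = 0.0578), and Kynu gained it without treated replicate 4 (edgeR adjusted p = 0.0388), without replicate 5 (0.00302), under limma-voom (0.0114) and in the compared groups without replicate 5 (0.000684). Cyp4a14 and Slc34a1 gained it without replicate 5, under limma-voom and in the compared groups without replicate 5, and Pdk4 lost it without replicate 5 and under limma-voom. These settings are not separate checks, because limma-voom gave replicate 5 little weight. Its sample weight was 0.033, against 0.661 to 1.273 for the other treated ob libraries at 2 mg/kg. With the compared groups alone, Aqp1, Slc7a13, Mep1b and Pvalb lost theirs, and Slc7a12, Pdk4 and Lcn2 lost the difference in response (edgeR adjusted p = 0.0702, 0.0615 and 0.0937). Pdk4 and Lcn2 also lost it without replicate 5 and with the replicate block, and Lcn2 under limma-voom (0.61, adjusted p = 0.318). Under limma-voom it was lost by Havcr1 (2.66, adjusted p = 0.249), Popdc3 (4.08, adjusted p = 0.0536) and Ugt1a2 (-3.84, adjusted p = 0.228). Replicate numbers did not pair the samples: deviations of same-numbered libraries correlated at -0.003 to 0.046 between 2 mg/kg and control and at -0.018 to 0.074 between the doses, and 0 of 6 treated libraries correlated best with the control of their own number. With a replicate block, the counts were 6767, 5038 and 322 for the comparisons with control, with 0.5 mg/kg and with b6j. At this depth, genes with under 3 counts in a library could not be told from 0.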
